A study of Danio rerio with 11 samples.

Results

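The genes described here encode the ionotropic glutamate receptors and the GABA-A receptors of the zebrafish brain. They were chosen by symbol alone, as every listed gene whose lower-case name begins with gria, grik, grin, grid or gabr and carries the subunit number or letter, which gave 42 of the 16536 genes listed. Of these, 40 encode receptor subunits, namely 26 glutamate receptor subunits and 14 GABA-A receptor subunits. The other 2 members, grid2ipa and grid2ipb, encode delphilin-type scaffold proteins of synapses, and they enter through the first letters of their names. The rule itself used no measured value, but it was chosen with earlier results of these data known. A gene had to exceed 1 CPM in at least 3 libraries to be listed, so subunits below that level are not analysed here.

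Whole brains of adult zebrafish aged about 8 months were compared between 4 genotypes, all on a TLF x AB strain background and all in the mpeg1-GFP line, in which a macrophage promoter drives green fluorescent protein. The groups were wild-type controls with 2 libraries and 3 mutant genotypes with 3 libraries each: csf1ra-/-, here called single mutants, csf1ra-/-;b+/-, in which csf1rb is heterozygous in addition, and csf1ra-/-;b-/-, here called double mutants. Both genes encode receptors for colony-stimulating factor 1, a growth factor on which microglia, the macrophages of the brain, depend. The design text speaks of 3 controls, and 2 were analysed here. The labels do not say whether libraries of a genotype came from separate fish, so each p-value measures the spread between these libraries, which may be technical. No allele is described beyond the genotype, and in a whole brain fewer cells of a type and less RNA per cell cannot be told apart.

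Fast excitation in the brain runs through ligand-gated cation channels that open when glutamate binds. AMPA receptors (gria genes) carry the rapid current, NMDA receptors (grin genes) need both glutamate and a depolarised membrane and admit calcium, kainate receptors (grik genes) act on both sides of the synapse, and delta receptors (grid genes) organise synapses. Fast inhibition runs through GABA-A receptors, pentameric chloride channels usually built of alpha and beta subunits with a gamma or a delta subunit. Receptors with the delta subunit sit mostly outside synapses, where they carry tonic inhibition, in mammals prominently in cerebellar granule cells, and rho subunits form receptors best known from the retina. Teleost fish kept many of these genes as duplicates named a and b.

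The libraries held 12799766 to 15254244 reads over the listed genes, and 1 CPM, a normalised read count scaled by library size and by the authors' library factor, stood for 12.3 to 15.7 reads. Levels per library are given in CPM, which is not divided by transcript length, so no order of levels between genes is drawn. The targeted genes followed the labels in direction: csf1ra was at 9.66 and 7.33 CPM in the controls and at 0 to 5.10 CPM in the 9 mutant libraries, and csf1rb was at 21.6 and 13.6 CPM in the controls, 8.42 to 14.4 CPM in the single mutants and 1.604 to 3.83 CPM in the other mutants. The summed level of 23 listed microglia and macrophage markers was 933 and 1351 CPM in the controls, 666 to 858 CPM in the single mutants, 435 to 479 CPM in the csf1rb-heterozygous mutants and 323 to 489 CPM in the double mutants. The targeted genes csf1ra and csf1rb are themselves among these 23 markers. The summed level of 16 listed neuron markers was 10633 and 11427 CPM in the controls and 9577 to 11239 CPM in the mutants, with overlap; of 18 neuron markers sought, these 16 were listed. Each sample also carries a number in its description, 1, 2 or 3, whose meaning the labels do not give. The 3 mutant libraries numbered 2, 1 of each mutant genotype, stood apart from the other 8 libraries, and no control carries that number. The gabrd differences of double mutants from controls and single mutants are also given without them. So are the medians of the set and the count of genes below both controls in every mutant library. For other genes, differences between genotypes are not given without these libraries and may depend on them.

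Of the 42 genes, 1 passed the test against control in any mutant: gabrd, which encodes the GABA-A delta subunit, fell in the double mutants. For the other 41 the differences missed the threshold, which does not show that their levels were alike. The count of 1 of 42 in double mutants is 2.38%, near the 1.16% of all genes called there. It does not set the receptor genes apart from all genes. With an adjusted p under 0.05 over all 16536 genes (limma on log2(CPM + 1), Benjamini-Hochberg), 0 of 42 genes were called in single mutants, where 0.472% of all genes were called, 0 of 42 in csf1rb-heterozygous mutants, where 0.671% were called, and 1 of 42 in double mutants, lower, where 1.16% were called and 0.798% were called lower. At an unadjusted p under 0.05 the counts were 2, 4 and 7 of 42, beside 11.4%, 15.6% and 16.1% of all genes. DESeq2 called 0, 1 and 1 receptor genes in the same order, among 285, 528 and 621 of all genes. edgeR on the recovered reads called 0, 0 and 1, among 75, 78 and 203. These 3 comparisons share their 2 control libraries and are not independent of each other.

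**Figure D1:**
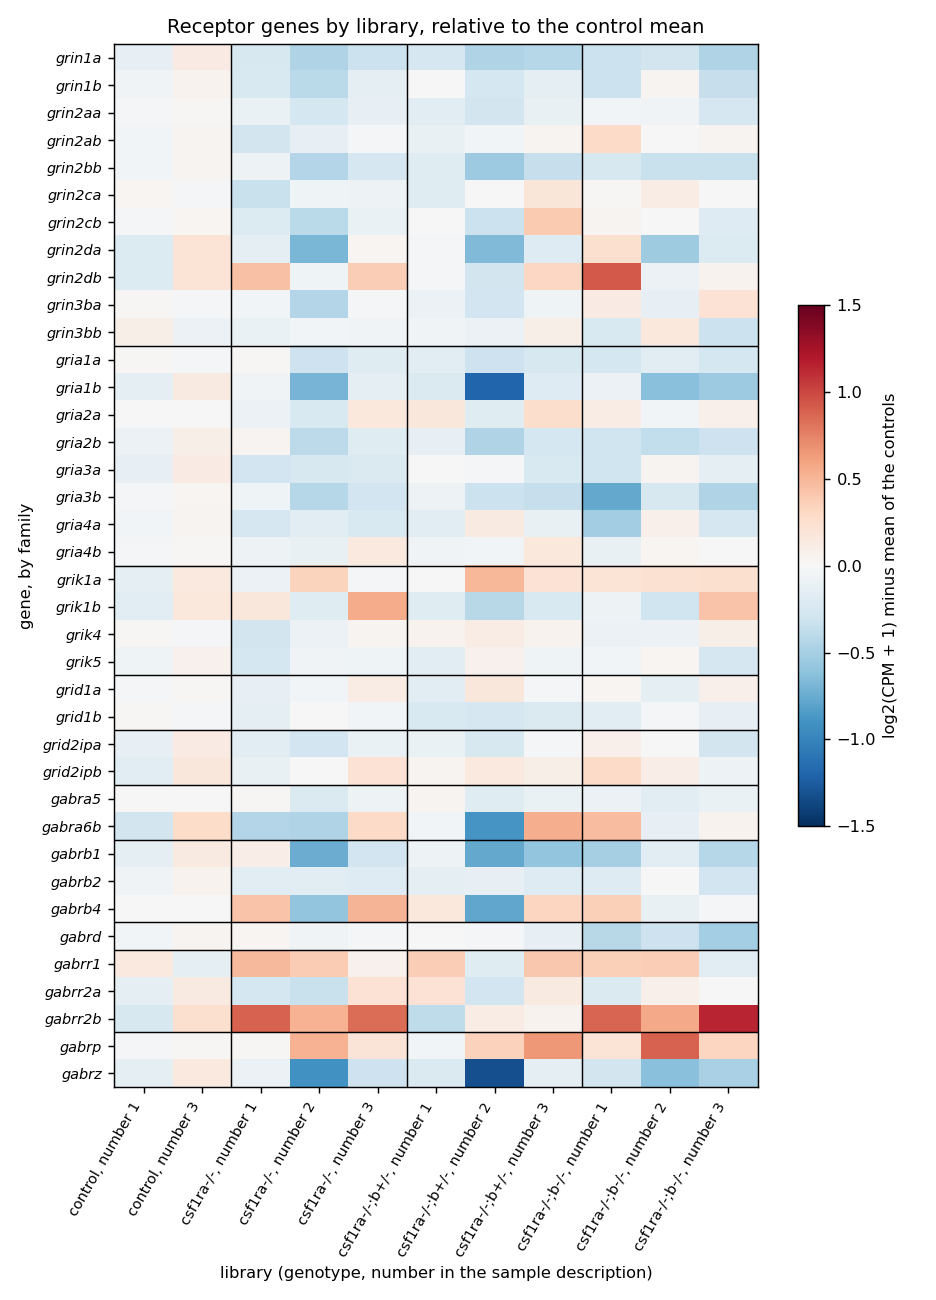
Each cell shows log2(CPM + 1) of a receptor gene in a library minus the mean of the controls, with the genes shown in rows by family and the 11 libraries in columns by genotype and sample-description number; colours end at 1.5 in both directions. gabrd is lower in the 3 double mutant columns, and gria1b is lowest in columns numbered 2.

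gabrd stood at 368 and 387 CPM in the controls, at 385, 363 and 372 CPM in the single mutants, at 375, 369 and 347 CPM in the csf1rb-heterozygous mutants, and at 281, 303 and 264 CPM in the double mutants. All 3 double mutant libraries lay below each of the other 8, and it was the only receptor gene so placed, where 1.28% of all genes were. None of the 42 had its 3 double mutant libraries above the 8 others, beside 1.15% of all genes. Its log2 difference from control was -0.42 ± 0.09 (SE, adjusted p = 0.0429), a mean of 283 ± 19.7 CPM (SD, n = 3) against 377 ± 13.6 CPM (SD, n = 2). The call rested on a small margin. Leaving out any of the 5 libraries compared gave log2 differences of -0.47 to -0.37. The call was lost when a double mutant library was left out, whichever it was. Without the libraries numbered 2 the log2 difference was -0.47 with adjusted p = 0.0467, so the call was kept there.

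Between mutant genotypes, gabrd was the only receptor gene called. It was lower in double mutants than in single mutants by a log2 difference of -0.40 ± 0.08 (SE, adjusted p = 0.0317), 1 of 42 genes where 0.943% of all genes were called and 0.617% were called lower. At an unadjusted p under 0.05 there were 2 of 42, beside 11.3% of all genes. This comparison shares its double mutant libraries with the one against control, so the 2 gabrd calls are not independent. Against csf1rb-heterozygous mutants the log2 difference was -0.36 ± 0.08 (SE) with adjusted p = 0.198. There 0 of 42 receptor genes were called, beside 0.0847% of all genes, and 2 of 42 had an unadjusted p under 0.05, beside 5.22%. DESeq2 called gabrd in that comparison, among 98 of all genes. Between csf1rb-heterozygous and single mutants 0 of 42 were called, beside 0.187% of all genes, with 1 of 42 at an unadjusted p under 0.05, beside 6.28% of all genes, and 0 called by DESeq2 or edgeR. Without the libraries numbered 2 the difference between double and single mutants was -0.47 with adjusted p = 0.0706. In the authors' deposited table gabrd was the only receptor gene with a false discovery rate under 0.05. Its log2 fold change was -0.41 against control (false discovery rate 0.0457) and -0.40 against single mutants (false discovery rate 0.0364). That table comes from the same experiment and is not a separate observation.

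gabra6b, a copy of the alpha6 subunit that in mammals pairs with the delta subunit in cerebellar granule cells, stood at 13.7 and 20.4 CPM in the controls and at 23.4, 15.2 and 17.3 CPM in the double mutants, and the groups overlapped. Its libraries spread widely around the genotype means (residual SD 0.50 on the log2 scale). A difference of the size seen for gabrd could thus have been missed. The 11 listed cerebellum markers summed to 2491 and 2625 CPM in the controls and to 2561, 3085 and 2676 CPM in the double mutants, so 1 of the 3 double mutants lay between the controls and the others above them. The list was chosen for the cerebellum, not for granule cells, so its sum does not give their number. Of the 23 microglia markers, csf1ra and csf1rb among them, 20 were called lower in the double mutants, 11 in the csf1rb-heterozygous and 1 in the single mutants. These are 87.0%, 47.8% and 4.35%, beside 0.798%, 0.405% and 0.175% of all genes called lower. The part of the cerebellum and microglia markers in the gabrd result was not tested.

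**Figure D2:**
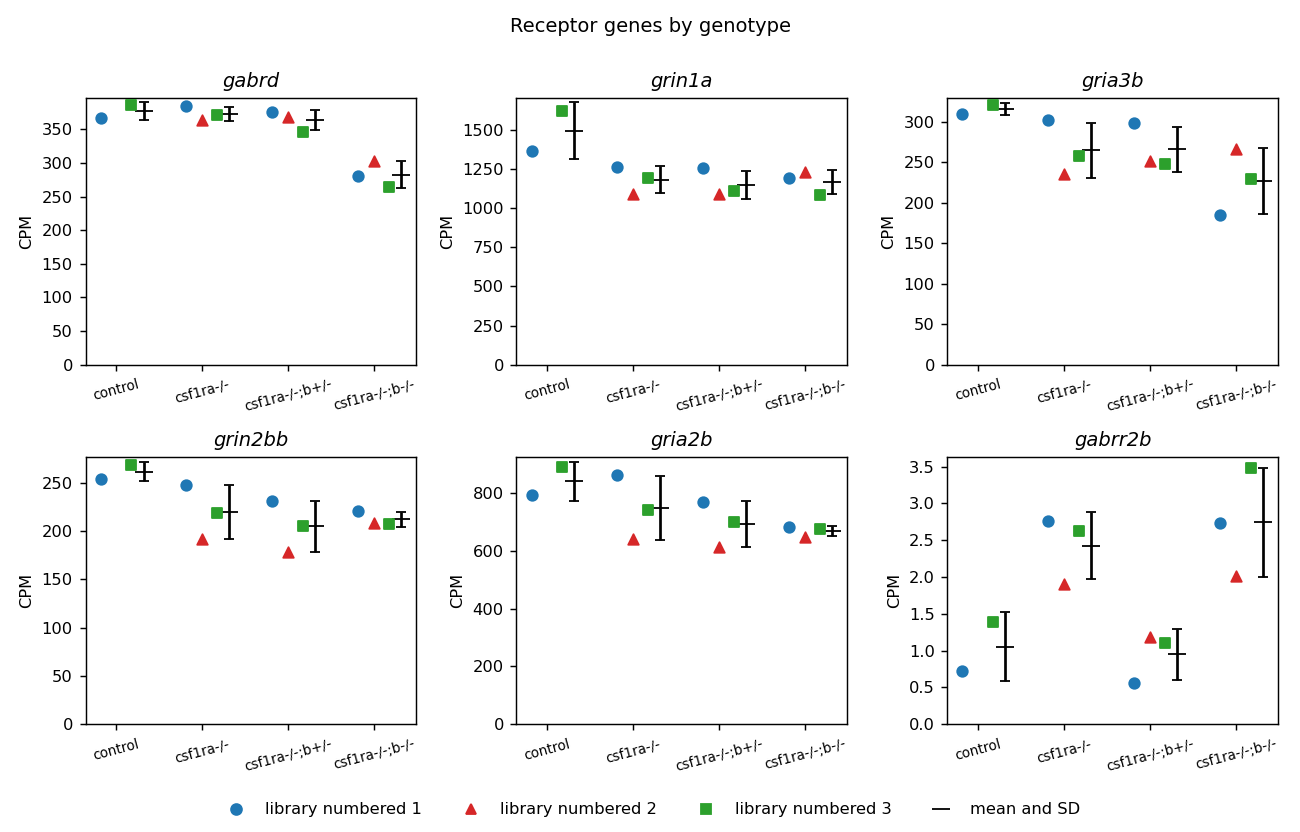
Points show the CPM of 6 receptor genes in each library by genotype, with the symbol giving the sample-description number and the bar the mean and SD of the genotype. gabrd in the double mutants lies below every other library, and grin1a lies highest in the 2 controls.

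Among the 11 NMDA receptor genes no gene was called in any comparison of genotypes. grin1a, a copy of the obligatory GluN1 subunit, stood at 1367 and 1623 CPM in the controls, at 1262, 1093 and 1191 CPM in the single mutants, at 1254, 1088 and 1109.6 CPM in the csf1rb-heterozygous mutants and at 1191, 1233 and 1086 CPM in the double mutants. All 9 mutant libraries lay below both controls, and the mutant genotypes overlapped each other. The log2 differences from control were -0.34, -0.37 and -0.35 (SE 0.11 each) with adjusted p of 0.279, 0.154 and 0.168. DESeq2 called the csf1rb-heterozygous difference with adjusted p = 0.0428, among 528 of all genes, where limma called 111. The 2 controls differ from each other, and without control replicate 2 the 3 differences were -0.21, -0.25 and -0.23.

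The second GluN1 copy, grin1b, was at 586 and 632 CPM in the controls and at 459 to 625 CPM in the mutants, with overlap in the csf1rb-heterozygous and double mutants. grin2bb, a GluN2B-type subunit that binds glutamate, was at 254 and 269 CPM in the controls, 248, 192 and 218 CPM in the single mutants, 231, 178 and 205 CPM in the csf1rb-heterozygous mutants and 221, 208 and 207 CPM in the double mutants. Its lowest single and csf1rb-heterozygous mutant values, 192 and 178 CPM, came from libraries numbered 2. Here too every mutant library was below both controls, with log2 differences of -0.26, -0.36 and -0.30 and adjusted p of 0.461, 0.210 and 0.266. The same placement held for grin2aa, a GluN2A-type subunit, at 123 and 125 CPM in the controls and 102 to 120.2 CPM in the mutants, with adjusted p of 0.388 to 0.597.

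In all, 4 receptor genes (grin1a, grin2aa, grin2bb and gria3b) had all 9 mutant libraries below both controls, which is 9.52% of the 42 beside 5.41% of all genes, and 0 had all 9 above, beside 5.91% of all genes. With the libraries numbered 2 left out, gabrb2, gria4a and grid1b joined them, 7 genes or 16.7% beside 7.44% of all genes, and 0 were above, beside 8.44%. The summed level of the 11 NMDA receptor genes was 2547 and 2878 CPM in the controls and 2041 to 2408 CPM in the mutants, without overlap. The summed level of 10 oligodendrocyte markers was 10515 and 9118 CPM in the controls and 6099 to 8137 CPM in the mutants, but gene by gene 7, 2 and 5 of the 10 were below 0 in single, csf1rb-heterozygous and double mutants, with medians of -0.14, 0.08 and -0.05. In double mutants 3 of the 10 lay below both controls without overlap (30.0%, beside 16.6% of all genes) and 2 above (20.0%, beside 19.9%). There 1 was called (10.0%, beside 1.16%), mbpa, which encodes a myelin protein (lower, log2 difference -0.75, adjusted p = 0.0222). Of the 16 neuron markers 13, 9 and 9 were below 0, with medians of -0.10, -0.01 and -0.02. In double mutants 1 was called (6.25%, beside 1.16% of all genes), map2, a cytoskeleton gene (lower, log2 difference -0.49, adjusted p = 0.0402). Their part in the NMDA receptor values was not tested.

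In single mutants 7 of the 11 NMDA receptor genes lay below both controls without overlap (63.6%, beside 13.7% of all genes), in csf1rb-heterozygous mutants 4 (36.4%, beside 16.6%) and in double mutants 3 (27.3%, beside 16.6%), and none lay above. grin1b, grin2ca, grin2cb and grin3ba were among those in single mutants, and each of them overlapped the controls in double mutants. grin2ca and grin2cb, GluN2C-type subunits, and grin3bb, a GluN3B-type subunit that binds glycine, had absolute log2 differences from control of at most 0.24 in the 3 comparisons. grin2db, the least counted NMDA receptor gene at 1.81 to 5.46 CPM or 26 to 86 reads, had log2 differences of 0.25, 0.00 and 0.30 with standard errors of 0.32, so only a large change could have been called.

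Among the 8 AMPA receptor genes none was called between genotypes, and 8, 6 and 7 of the 8 log2 differences from control were below 0 in single, csf1rb-heterozygous and double mutants. gria3b, a GluA3 copy, stood at 310.2 and 321 CPM in the controls, at 302, 235 and 258 CPM in the single mutants, at 298, 252 and 248 CPM in the csf1rb-heterozygous mutants and at 185, 267 and 229.9 CPM in the double mutants. No mutant library reached a control. The log2 difference in double mutants was -0.49 ± 0.15 (SE, adjusted p = 0.157), and without double mutant replicate 1 it was -0.35.

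gria2b, a copy of GluA2, the subunit that in its edited form makes AMPA receptors impermeable to calcium, was at 792 and 888 CPM in the controls and at 683, 649 and 674 CPM in the double mutants (log2 difference -0.33, adjusted p = 0.253). The other GluA2 copy, gria2a, was at 326 and 322 CPM in the controls and at 349, 314 and 341 CPM in the double mutants (log2 difference 0.05, adjusted p = 0.906). The groups separated for gria2b and overlapped for gria2a, and neither difference passed the test. gria3a, the other GluA3 copy, was at 197 and 232 CPM in the controls and at 176, 181 and 184 CPM in the single mutants (log2 difference -0.25, adjusted p = 0.453).

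No kainate or delta receptor gene was called between genotypes. Of the 4 kainate receptor genes, grik1a, a GluK1 copy, was at 18.7 and 23.1 CPM in the controls and 24.1, 24.7 and 24.7 CPM in the double mutants (log2 difference 0.22, adjusted p = 0.556). Its duplicate grik1b was at 2.69 and 3.63 CPM in the controls and 2.09 to 5.10 CPM in the mutants, and grik5, a GluK5 subunit, was at 52.0 and 56.6 CPM in the controls and 45.2 to 56.8 CPM in the mutants. grid1b, a delta receptor subunit, was at 41.9 and 40.6 CPM in the controls and 35.1, 34.4 and 35.3 CPM in the csf1rb-heterozygous mutants, which lay below every other library (log2 difference -0.23, adjusted p = 0.274). grid1b was also among the steadiest genes of the whole table, with a residual SD of 0.06 on the log2 scale, smaller in 0.556% of genes. The scaffold genes grid2ipa and grid2ipb had adjusted p of at least 0.607 in the 3 comparisons with control.

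**Figure D3:**
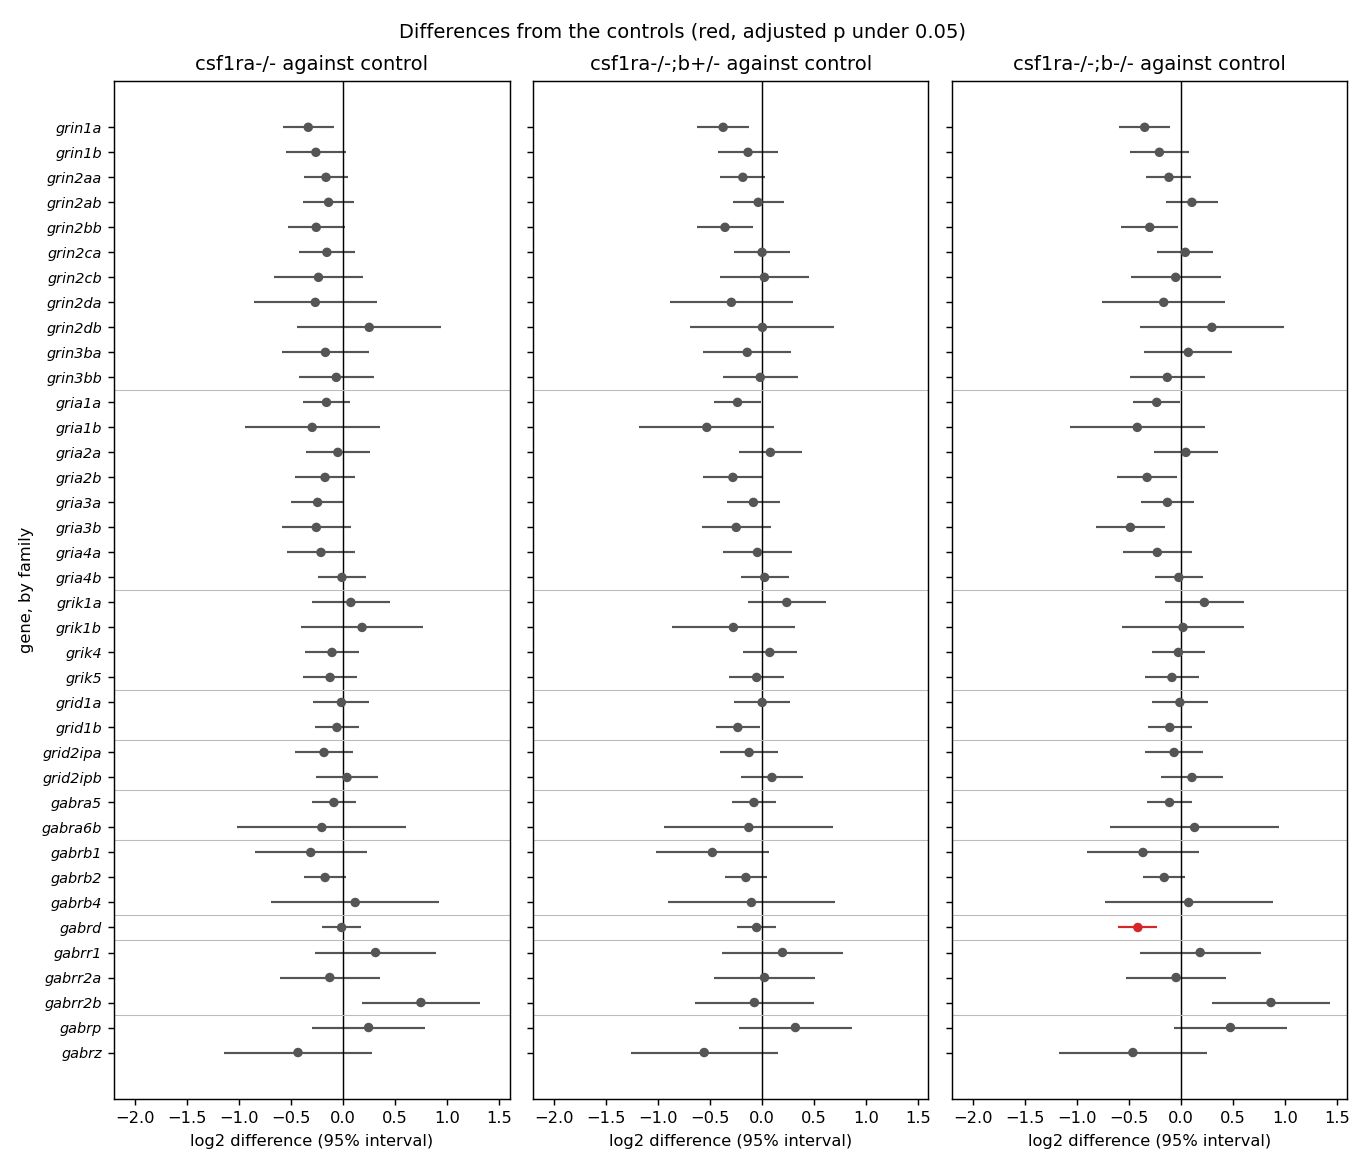
Log2 differences of log2(CPM + 1) from control with 95% intervals for the receptor genes shown in each mutant genotype, by family; red marks an adjusted p under 0.05. gabrd in the double mutants is the only red point, and the other intervals differ in width from gene to gene.

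Of the 14 GABA-A receptor genes, only gabrd was called between genotypes. gabrb2, a beta subunit, was at 347 and 372 CPM in the controls and 295 to 357 CPM in the mutants, with log2 differences of -0.17, -0.16 and -0.16 and adjusted p of 0.421 to 0.499. gabrp, the pi subunit, was at 9.07 and 9.33 CPM in the controls and 10.8, 17.9 and 11.8 CPM in the double mutants (log2 difference 0.47, adjusted p = 0.373).

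gabrr2b, a rho2 copy, had a different order of genotypes. It stood at 0.723 and 1.39 CPM in the controls, 2.76, 1.90 and 2.62 CPM in the single mutants, 0.557, 1.19 and 1.102 CPM in the csf1rb-heterozygous mutants and 2.73, 2.01 and 3.48 CPM in the double mutants. Single and double mutants lay above both other groups with no overlap. Log2 differences from control were 0.75 ± 0.26 and 0.86 ± 0.26 (SE) in single and double mutants and -0.07 ± 0.26 in csf1rb-heterozygous mutants, with adjusted p of 0.297, 0.144 and 0.910, on 8 to 52 reads per library. The log2(CPM + 1) scale understates a change at this level, and with a pseudocount of 0.25 the double mutant difference was 1.21 with adjusted p = 0.159. Its duplicate gabrr2a was at 5.35 to 8.35 CPM, and gabrr1, the rho1 gene, was at 1.25 to 2.60 CPM, with all genotypes overlapping. The 14 listed markers of retina and pineal summed to 92.5 to 117 CPM in the controls and 10.49 to 185 CPM in the mutants, and their part in the rho gene values was not tested.

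As a set, the receptor genes lay slightly below control. The median log2 difference was -0.16 in single, -0.09 in csf1rb-heterozygous and -0.10 in double mutants, beside 0.01, 0.00 and 0.01 over all genes, and 34, 31 and 28 of 42 differences were below 0 (81.0%, 73.8% and 66.7%), beside 49.1%, 49.8% and 48.0% of all genes. Groups did not overlap for 12, 11 and 13 receptor genes on the lower side (28.6%, 26.2% and 31.0%, beside 13.7%, 16.6% and 16.6% of all genes) and for 1, 1 and 3 on the higher side (2.38%, 2.38% and 7.14%, beside 15.6%, 17.8% and 19.9%). Without the libraries numbered 2 the medians were -0.08, -0.07 and -0.10, and without control replicate 2 the double mutant median was -0.03. Between mutant genotypes the groups separated for 2 lower and 1 higher genes in csf1rb-heterozygous against single mutants (beside 6.46% and 5.27% of all genes), for 1 and 2 in double against single mutants (beside 8.32% and 7.89%) and for 1 and 2 in double against csf1rb-heterozygous mutants (beside 4.83% and 4.26%).

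Genes that work with these receptors were described the same way, in 7 lists that hold 138 listed gene symbols: AMPA receptor auxiliary subunits, excitatory and inhibitory postsynaptic scaffolds, kainate and delta receptor partners, enzymes and transporters of glutamate and GABA, metabotropic receptors with GABA-B receptors, and glycine receptors. Against control 0 genes of these lists were called in any mutant genotype, counting all 7 lists. Beside this, 0.472%, 0.671% and 1.16% of all genes were called in single, csf1rb-heterozygous and double mutants. With shares this low, the lack of calls does not set these lists apart from all genes. gad2, an enzyme that makes GABA, was at 1063 and 1255 CPM in the controls and at 790.5, 695 and 738 CPM in the csf1rb-heterozygous mutants (log2 difference -0.64, adjusted p = 0.0720). Lower differences prevailed among the enzymes and transporters, 22, 25 and 21 of 27 gene IDs in single, csf1rb-heterozygous and double mutants, beside the all-gene shares given above. The summed level of this list was 7165 and 8821 CPM in the controls and 6880 to 7826 CPM in the mutants, with overlap. These counts include the libraries numbered 2, in which 11 of the 27 were called lower than in number 1 (40.7%).

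Other named genes of these lists also missed the threshold. glra1, a glycine receptor alpha subunit, was at 97.3 and 106.6 CPM in the controls and at 81.2, 54.3 and 62.2 CPM in the single mutants (log2 difference -0.64, adjusted p = 0.172). dlg3, a scaffold protein of excitatory synapses, was at 197 and 220.2 CPM in the controls and 160.1, 172 and 179.6 CPM in the csf1rb-heterozygous mutants (log2 difference -0.29, adjusted p = 0.162). grm2a, a metabotropic glutamate receptor, was at 32.7 and 42.3 CPM in the controls and 61.1, 53.6 and 55.0 CPM in the double mutants (log2 difference 0.59, adjusted p = 0.0702). iqsec3a of inhibitory synapses (-0.34, adjusted p = 0.168) and cbln4, a cerebellin (-0.57, adjusted p = 0.194), had lower log2 values in double mutants, and nptxrb, a neuronal pentraxin receptor (0.35, adjusted p = 0.235), had a higher one.

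More receptor genes were called between description numbers than between genotypes. In a fit with genotype and number, 7 of 42 genes were called between numbers 2 and 1, where 8.55% of all genes were called: 6 were lower in number 2 (14.3%, beside 7.23% of all genes) and 1 was higher (2.38%, beside 1.32%). Between numbers 3 and 2, 6 of 42 were called, where 6.98% of all genes were called, and all 6 were higher in number 3 (14.3%, beside 6.53% of all genes). Between numbers 3 and 1, 0 of 42 were called, beside 0.689% of all genes, with 1 of 42 at an unadjusted p under 0.05, beside 8.92% of all genes, and 0 by edgeR or DESeq2. In all, 8 genes were called in at least 1 of these 3 contrasts.

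**Figure D4:**
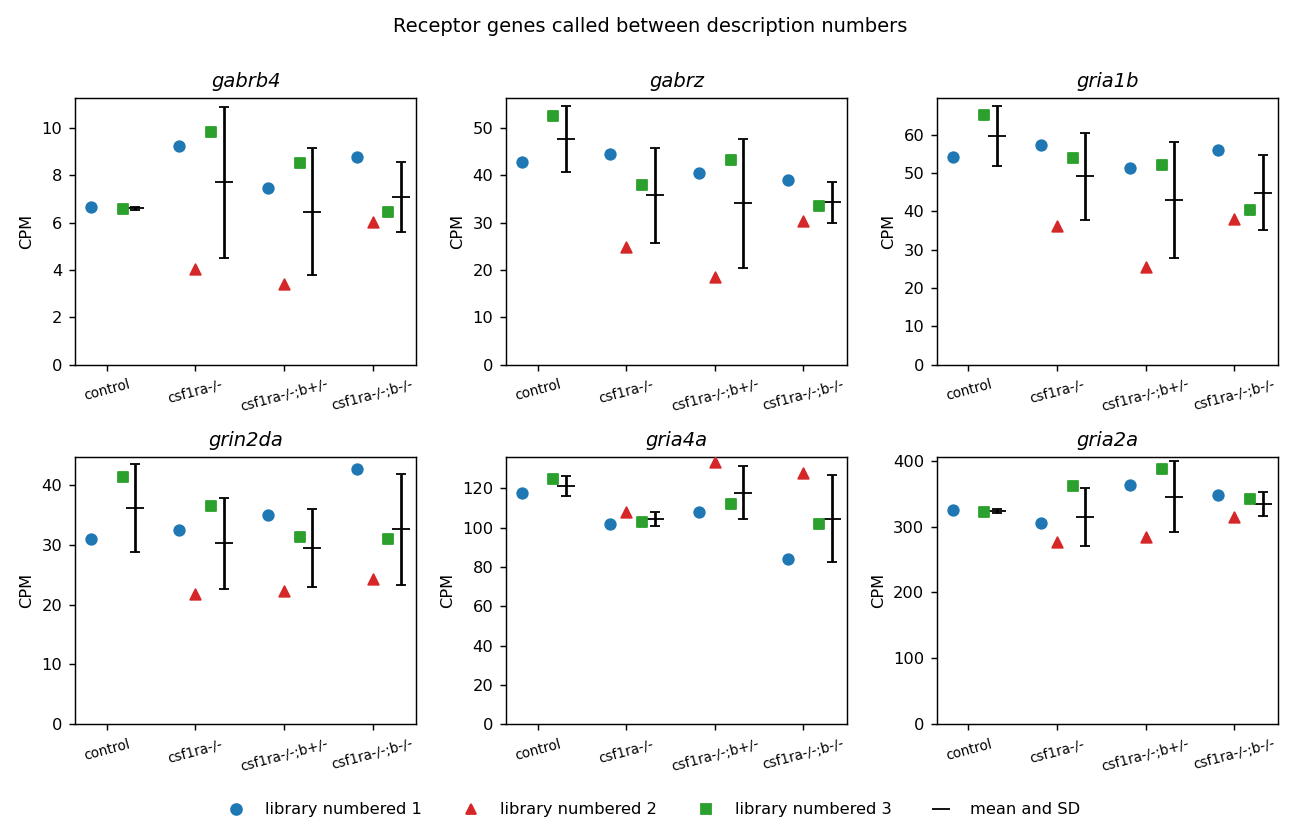
CPM of 6 receptor genes in each library by genotype, with red triangles for the libraries numbered 2 and the bar for the mean and SD of the genotype. Red triangles are lowest within each mutant genotype for gabrb4, gabrz, gria1b and grin2da. For gria4a they are highest within each mutant genotype but overlap the controls.

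Genes lower in number 2 came from both receptor classes. gabra5, an alpha subunit, was at 90.2 to 94.0 CPM in the libraries numbered 2 and 97.5 to 108 CPM in the others, a log2 difference between numbers 2 and 1 of -0.17 that missed the threshold (adjusted p = 0.150). gabrb4, a beta subunit, and gabrz, named in the files as another GABA-A subunit gene, differed by -0.81 and -0.70 (adjusted p = 0.0280 and 0.0284). gria1b, a GluA1 copy, was at 25.4 to 38.1 CPM against 40.3 to 65.3 CPM (-0.67, adjusted p = 0.0235), and grin2da, a GluN2D-type subunit, was at 21.8 to 24.4 CPM against 30.9 to 42.7 CPM (-0.59, adjusted p = 0.0275). gria4a, a GluA4 copy, was the gene higher in number 2, by 0.33 (adjusted p = 0.0491), and gria2a was higher in number 3 than in number 2 by 0.30 (adjusted p = 0.0486). edgeR called neither difference. gria4a was at 108 to 133 CPM in the libraries numbered 2 and 84.1 to 125 CPM in the others, with overlap.

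Without regard to the test, 8 receptor genes (among them gabra5, gabrb4, gabrz, gria1b, gria2b, grin2da and grin3ba) had all 3 libraries numbered 2 below the 8 others, 19.0% of the 42 beside 7.63% of all genes, and 0 had all 3 above, beside 4.15%. Of the 16 listed neuron markers 0 were called between numbers 2 and 1, and their median log2 difference was 0.17. Cerebellum markers had 0 calls of 11 and a median of 0.14. Microglia markers had 0 calls of 23 and a median of -0.23, beside 0.02 over all genes. Endothelium and blood markers had 4 of 14 gene IDs called (28.6%), 14.3% lower and 14.3% higher. Telencephalon markers had 1 of 12 called (8.33%), higher. Over all genes 8.55% were called. The remaining marker lists had 0 calls.

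The partner lists were counted in the same contrast of numbers 2 and 1, in which 7.23% of all genes were called lower and 1.32% higher. For enzymes and transporters 11 of 27 gene IDs were called lower (40.7%) and 0 higher, among them abat, which breaks down GABA (-0.63, adjusted p = 0.00411), slc17a6a, a vesicular glutamate transporter (-0.90, adjusted p = 0.00511), and slc12a5b, a chloride extruder that sets the direction of GABA-A currents (-1.73, adjusted p = 0.0145). Excitatory scaffold genes had 9 of 37 gene IDs called lower (24.3%) and 0 higher, led by camk2b2, a calcium-dependent kinase gene (-1.15, adjusted p = 0.00352). Metabotropic and GABA-B receptor genes had 6 of 15 called lower (40.0%) and 0 higher, among them gabbr1b (-1.38, adjusted p = 0.00754) and grm1b (-1.04, adjusted p = 0.00564).

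Inhibitory scaffold genes had 3 of 18 called lower (16.7%) and 0 higher, namely plcl1 (-0.89), lhfpl4a (-0.75), a protein of inhibitory synapses, and nlgn2a (-0.41). AMPA receptor auxiliary genes had 2 of 23 called lower (8.70%) and 1 higher (4.35%), and kainate and delta receptor partners had 1 of 13 called higher (7.69%) and 0 lower. The 7 glycine receptor genes had 0 calls and a median log2 difference of 0.21. What the number marks is not given, and its part in these differences was not tested.

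For duplicate pairs the share of the a copy in the CPM of both copies was followed across libraries. With reads of 50 nucleotides, part of the reads of close copies may be shared, so each share is uncertain. grin1a made up 66.4% to 72.0% of the CPM of the grin1 pair, grin2aa 55.8% to 64.2% of its pair, grin2ca 84.7% to 89.5% and grin2da 88.7% to 94.0%. Among AMPA receptor pairs gria2a made up 26.1% to 35.7%, with 29.1% and 26.6% in the controls and 33.8%, 32.6% and 33.6% in the double mutants. gria3a made up 36.8% to 48.5%, with 38.8% and 42.0% in the controls and 48.5%, 45.1% and 45.8% in the double mutants, and in neither pair did double mutants overlap the controls. In the gria2 pair the csf1rb-heterozygous mutants, at 32.1%, 31.7% and 35.7%, also lay above both controls. Such a placement was not particular to AMPA receptor pairs. The shares of grin2aa, grin2da, grid2ipa and gabrr2a in the double mutants all lay below both controls. For grin2aa the share was 61.8% and 61.0% in the controls and 55.8%, 60.8% and 56.4% in the double mutants. No share was tested.

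**Figure D5:**
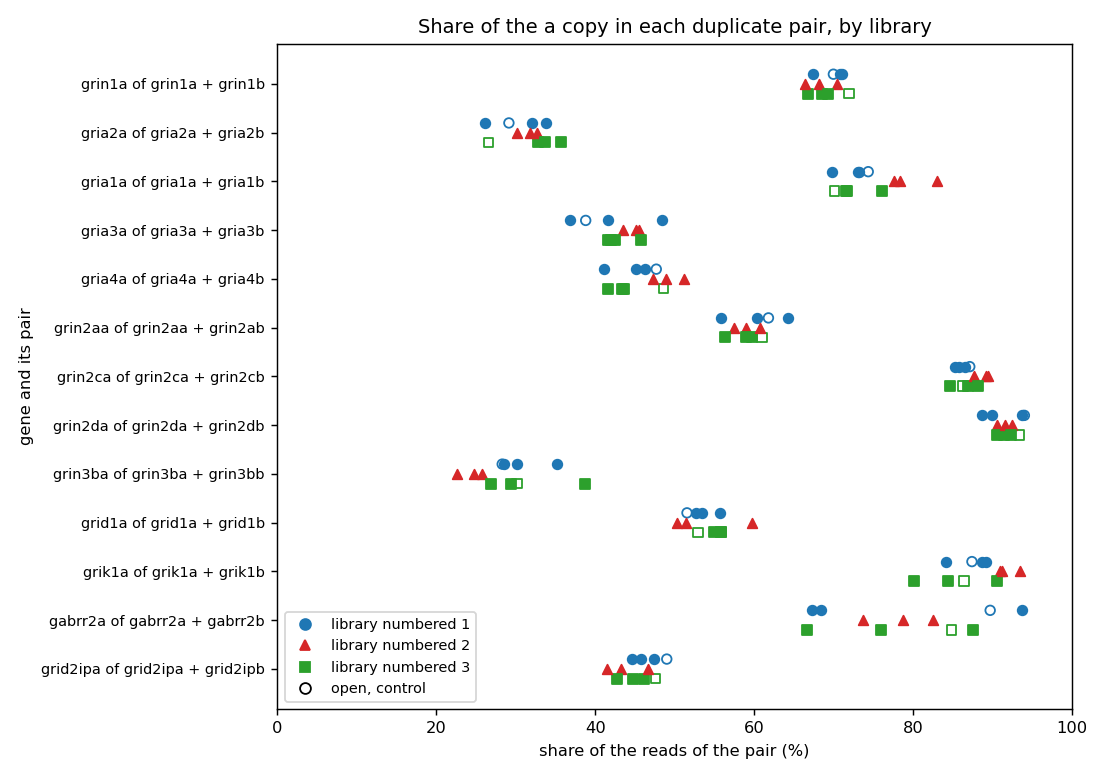
Share (%) of the a copy in the summed CPM of each of 13 duplicate pairs, each point a library, with symbols for the sample-description number and open symbols for controls. Shares are narrow for grin1 and grin2c and widest for gabrr2. In the libraries numbered 2, gria1a and grik1a lie higher and grin3ba lies lower than in the others.

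The gria1 pair followed the number: gria1a made up 77.6%, 83.0% and 78.3% in the libraries numbered 2 and 69.7% to 76.1% in the others. It was not alone in this. grik1a made up 91.0% to 93.4% of its pair in the libraries numbered 2 and 80.1% to 90.6% in the others. In the other direction, grin3ba made up 22.6% to 25.7% and 26.8% to 38.7%. The widest range, 66.7% to 93.8%, was that of gabrr2a in the gabrr2 pair, at 89.7% and 84.9% in the controls, 67.3% to 76.0% in the single mutants, 82.5% to 93.8% in the csf1rb-heterozygous mutants and 66.7% to 78.8% in the double mutants. Single and double mutants lay below both other groups in that share without overlap. That share rests on gabrr2b, counted at 8 to 52 reads per library. The grik1 and grin3b shares also rest on few reads, 30 to 70 of grik1b and 44 to 84 of grin3ba.

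Receptor genes differed in the spread between libraries of a genotype. The residual SD on the log2 scale was 0.07 for gabrd, smaller in 1.79% of all genes, 0.08 for gabrb2, smaller in 4.25%, and 0.12 for grin1a, smaller in 16.2%. Other receptor genes spread widely. The residual SD was 0.50 for gabra6b, smaller in 93.9% of all genes, 0.48 for gabrb4, smaller in 93.2%, and 0.44 for gabrz, smaller in 91.2%. Part of this spread went with the description number. With the number also in the fit, the residual SD was 0.37, 0.27 and 0.27 for these genes. For gabrd, gabrb2 and grin1a it was then 0.07, 0.07 and 0.13.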

How the data were processed

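The data are 11 RNA-seq libraries from zebrafish brains of 4 genotypes. Per the labels' protocols, dissociated brain tissue gave RNA whose cDNA was amplified, tagmented with Tn5 and read from one side for 50 nucleotides, so amplification can widen the spread of low genes. The submitters' processing notes name the build GRCz10 and, without roles, HISAT2 and edgeR; no source used here gives versions, annotation or strand handling. The deposited signal per gene is CPM times the authors' library factor (0.963 to 1.04). All values (100%) were whole multiples of 1 read within 0.001 reads, and libraries held 12799766 to 15254244 reads. The authors' deposited comparison tables hold log2 fold changes and false discovery rates, a form of adjusted p-value. A group's depth limits precision by counting error only in genes of few reads.

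The main test was limma 3.58.1 (R 4.3.3, trended variance) on log2(CPM + 1), 1 unblocked fit over 4 genotypes, adjusted by Benjamini and Hochberg's method across all 16536 genes with a threshold of 0.05; the contrasts of description numbers came from a fit of genotype and number. The main test was also run on simulated counts, drawn with the same setting for spread in all genes and no effect of description number. That run does not cover the unequal spread and the number differences of these data. edgeR 4.0.16, DESeq2 1.42.0 and limma-voom on the recovered reads, pseudocounts of 0.25 and 4, CPM without the factor, a mean CPM of at least 5, both genotypes alone, replicate blocks and each library left out were alternatives. The table was deposited already filtered (over 1 CPM in 3 libraries or more), so no unfiltered alternative could be run. Named genes were textbook subunits (grik2 and gabra6a are not listed), called genes, the 3 genes with the smallest p in each direction per comparison with control, and partners in duplicate pairs. The members, lists and rule were chosen with earlier results of these data known. The rule also named each family's members of highest and lowest mean CPM and, of each partner list, called genes or the gene of smallest p; genes outside it, such as grin2aa, gabra5 and gabbr2, were named after their values were seen. No sequences are shown, because no sequence table was used here. Some members count in every total but are not reported here by name or shown in the plots. The symbols of 7 rows written in capitals lie outside the rule.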

Additional observations from a re-analysis of the deposited data

How the results depend on the processing

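Calls on receptor genes were few and rested on small margins. The count of 1 in double mutants against control became 0 with a mean CPM of at least 5, with the 2 genotypes fitted alone, and in each fit that left out a library (range 0 to 0). That count against single mutants became 0 with the 2 genotypes fitted alone and 0 to 1 when a library was left out. Without the libraries numbered 2, an alternative chosen after seeing the data, it was 0 against single mutants and 1 against control. DESeq2 gave 1 call where limma gave 0 in csf1rb-heterozygous mutants against control (grin1a) and in double against csf1rb-heterozygous mutants (gabrd). It called 528 and 98 of all genes there, and limma 111 and 14. Over all genes in double mutants against control, limma called 192, edgeR 203, limma-voom 177, DESeq2 621, the mean CPM filter 107 and the 2 genotypes alone 116. The 8 genes called between numbers became 5 with edgeR and 1 to 10 when a library was left out; fewer samples entered those fits, and where 1 control was left it was assumed to vary like the other groups.

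The median difference of csf1rb-heterozygous mutants from control (-0.09) ranged from -0.19 without control replicate 1 to -0.025 without control replicate 2 when a library was left out. The median of double mutants (-0.10) likewise ranged from -0.14 to -0.028, and the median of double against single mutants (0.02) was -0.056 without the libraries numbered 2. No difference reversed among those of named genes: 439 values stayed on their side of the threshold, 95 lost it and 1 gained it. The 439 include differences not called in the main fit, which could not lose a call. All 95 losses came from differences called there, so these counts do not show that the calls were stable. With a replicate block by description number, 1 receptor gene was called in double mutants against control, as without it (gabrd -0.43, adjusted p = 0.0377), among 250 of all genes; with a replicate block by title number it was -0.39 (adjusted p = 0.0426), among 322. Libraries of the same description number correlated with r of -0.01 to 0.64 in their deviations (9 of 15 pairs over 0.1). Between libraries of different description numbers r was -0.46 to 0.18 (5 of 30 pairs over 0.1). The 3 pairs within number 2 had r of 0.16 to 0.64. Correlations over 0.1 were thus more frequent within a number than between numbers. The pairs are not independent, because deviations were taken from the mean of each genotype. The 2 controls therefore mirror each other, with r of 0.20 and -0.20 to the same csf1rb-heterozygous library, and these counts only describe the pairs. The meaning of the numbers is unknown, and they were not taken as pairs in the main fit. With 2 or 3 libraries a genotype, differences in genes of wider spread had wide intervals, and an adjusted p above the threshold does not show equal levels.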

Other observations

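Outside the naming rule, 7 rows with capital-letter symbols carry names of receptor subunits. GRIK3, a kainate receptor subunit, was at 5.42, 5.37 and 9.13 CPM in the libraries numbered 2 and 8.88 to 13.9 CPM in the others (log2 difference between numbers 2 and 1 -0.85, adjusted p = 0.0205). GABRG1, a gamma1 subunit, was at 5.13, 4.04 and 8.91 CPM there and 7.13 to 12.2 CPM in the others (-0.79, adjusted p = 0.0297), and in both rows the ranges overlapped. Neither was called between genotypes. The row GRIN2B (1 of many), a GluN2B-type gene, ranged from 13.5 to 72.0 CPM, and both of these extremes were double mutant libraries.

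GABA-B receptors are the slow G-protein-coupled receptors for GABA, and their gene gabbr2 was called lower in the libraries numbered 2. gabbr2 averaged 16.6 CPM there and 32.4 CPM in the libraries numbered 1 (log2 difference -0.996, adjusted p = 0.0108).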
